A study of Mus musculus with 12 samples.

Results

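Chemokines are small secreted proteins that draw white blood cells along a gradient. They are sorted by the spacing of their first cysteines into CC ligands (Ccl genes) and CXC ligands (Cxcl genes), and they act through G-protein-coupled receptors of the Ccr and Cxcr families. In adipose tissue they come from macrophages, endothelial and stromal cells and from adipocytes themselves, and Ccl2 is known for bringing monocytes into fat. Expression of 10 such genes was followed here in brown adipose tissue, the fat depot that burns fuel for heat. They are Ccl2, Ccl6, Ccl7, Ccl8, Ccl9, Ccl11, Cxcl1, Cxcl10, Cxcl12 and Cxcl14, chosen by name with earlier results of these data known. All 10 were found among the 24452 genes of the deposited table, and 9 reached a mean of at least 0.5 RPKM (reads scaled to gene length and library size), the filter for testing. Cxcl1 lay below it.

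RNA-seq of 12 male C57BL/6J Bom mouse samples, 12 weeks of age, covered 4 groups of 3 libraries. The ERRαγAd-/- groups (knockout below) carried floxed alleles of the nuclear receptors ERRα and ERRγ and an adiponectin-promoter Cre, which acts in adipocytes of brown and white fat. Other cells of the tissue therefore keep both genes. The WT groups were littermates with the same floxed alleles and no Cre. Mice of each genotype received CL316,243, which activates the β3-adrenergic receptor, in a dose of 1 mg/kg by daily intraperitoneal injection for 10 days, or PBS, in mice kept at 30 °C. Dosing began at 10 to 11 weeks of age and the fat was collected 24 h past the final injection. The groups are named knockout CL, knockout PBS, WT CL and WT PBS. Whether each library is a different mouse is not stated in the labels, and p-values reflect sample-to-sample spread, which may be technical.

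Recovered reads per library numbered 12468001 to 12954186 in knockout CL, 12822176 to 13263567 in knockout PBS, 8979123 to 9559239 in WT CL and 8478310 to 9727167 in WT PBS. On the deposited RPKM scale the median of all tested genes was higher in knockout than in WT by 0.63 (log2) under CL and 0.53 under PBS, and it changed with CL by -0.16 in knockout and -0.26 in WT. Levels below are therefore RPKM divided by a median-of-ratios factor per library (scaled RPKM), and changes are differences in log2 of scaled RPKM plus 0.5, with the standard error. This scale understates changes of low genes. Esrra, which encodes ERRα, was at 5.25 to 8.89 scaled RPKM in the 6 knockout libraries and at 41.6 to 83.1 in the 6 WT libraries. Esrrg, which encodes ERRγ, overlapped between genotypes, at 2.29 to 8.11 in knockout and 4.40 to 8.26 in WT. Ucp1, the heat-producing uncoupling protein, was present in all 4 groups, averaging 36.6 in knockout CL, 4.53 in knockout PBS, 2350 in WT CL and 446 in WT PBS.

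Of the 10 genes, 6 lie in 2 clusters on mouse chromosome 11. Ccl2, Ccl7, Ccl11 and Ccl8 stand in that order, with Ccl12 between Ccl11 and Ccl8, within 81.2 kb (82035571 to 82116799, plus strand). Ccl9 and Ccl6 are neighbours within 20.2 kb (83572919 to 83593087, minus strand). Cxcl1 (90891241 to 90893115, plus strand) and Cxcl10 (92346638 to 92348889, minus strand) lie on chromosome 5, Cxcl12 on chromosome 6 (117168535 to 117181367, plus strand) and Cxcl14 on chromosome 13 (56288643 to 56296551, minus strand). Coordinates are those of GENCODE M21 on GRCm38, matched by symbol. Of the exon bases of Cxcl10, 5.9% overlap exons of Art3, and the use of strand in counting is not given in the sources used here. The other 9 genes overlap no other annotated exon. Ccl9 transcripts also share 163 bases with Baz1b at 96.3% identity, so that stretch of Ccl9 is uncertain.

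The promoters of 4 of these genes are shown because the genes received different calls under the agonist: Cxcl10 and Cxcl14 were lower in both genotypes, Ccl8 was lower in knockout but not called in WT, and Cxcl12 was called in neither. Each sequence runs from 250 bases before to 50 bases after the RefSeq start site on GRCm38.p6, 5′ to 3′ on the gene's strand, and was available for 7 of the 10 genes. Capitals mark matches, on either strand, to the NF-κB consensus, the interferon-stimulated response element (by name, its matches being given after the sequences), AAGGTCA (the site a single ERR contacts), TGACGTCA (a cAMP response element) or TATAAA.
Cxcl10: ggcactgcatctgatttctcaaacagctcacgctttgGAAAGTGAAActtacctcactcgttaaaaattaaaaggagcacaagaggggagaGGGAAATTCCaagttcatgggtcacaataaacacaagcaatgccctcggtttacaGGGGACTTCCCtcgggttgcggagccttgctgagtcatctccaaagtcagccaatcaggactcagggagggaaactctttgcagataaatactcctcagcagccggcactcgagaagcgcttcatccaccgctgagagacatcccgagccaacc
Cxcl14: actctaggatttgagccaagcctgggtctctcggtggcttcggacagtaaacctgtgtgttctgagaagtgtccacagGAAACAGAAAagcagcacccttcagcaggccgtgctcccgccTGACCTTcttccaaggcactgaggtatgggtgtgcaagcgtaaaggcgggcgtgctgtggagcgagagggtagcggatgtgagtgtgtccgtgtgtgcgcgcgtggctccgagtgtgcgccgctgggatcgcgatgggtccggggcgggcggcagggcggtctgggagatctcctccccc
Ccl8: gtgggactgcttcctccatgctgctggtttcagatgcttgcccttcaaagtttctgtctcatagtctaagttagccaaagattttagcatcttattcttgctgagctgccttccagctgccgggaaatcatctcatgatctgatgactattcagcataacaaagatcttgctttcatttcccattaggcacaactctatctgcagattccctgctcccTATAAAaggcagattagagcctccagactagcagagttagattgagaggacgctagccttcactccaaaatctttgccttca
Cxcl12: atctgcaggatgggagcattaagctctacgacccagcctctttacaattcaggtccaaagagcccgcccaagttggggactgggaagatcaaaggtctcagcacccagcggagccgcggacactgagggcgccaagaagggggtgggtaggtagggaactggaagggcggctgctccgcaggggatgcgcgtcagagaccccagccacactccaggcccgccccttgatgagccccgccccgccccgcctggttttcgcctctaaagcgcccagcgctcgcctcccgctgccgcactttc
Cxcl10 held GAAAGTGAAA at -213 and NF-κB matches at -159, -104 and -103, the last 2 overlapping each other. Cxcl14 held GAAACAGAAA at -172 and a minus-strand AAGGTCA at -130. Ccl8 held TATAAA at -32, and Cxcl12 held none of the 5 motifs in this window. Among the promoters not shown, Ccl6, called lower in both genotypes, held only a minus-strand AAGGTCA at -88. Ccl9 held a minus-strand NF-κB match at -35 and TATAAA at -92, -94 and -224. Cxcl1, which was below the filter, held overlapping NF-κB matches at -71 and -70. Of 32851 promoters of the same length, 8.46% held the NF-κB consensus, 3.44% the interferon-stimulated response element, 4.72% AAGGTCA, 1.79% TGACGTCA and 13.6% TATAAA. These are letter matches in a window and say nothing of binding.

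The agonist lowered most of these chemokines in both genotypes. Because the genes were chosen with earlier results of these data known, the shares of all genes beside them are a description. In knockout, Ccl2, Ccl6, Ccl7, Ccl8, Cxcl10 and Cxcl14 were lower in CL than in PBS libraries and none was higher: 6 of 9 tested genes, against 3.62% of all 12249 tested genes called lower and 10.3% called in either direction. The groups did not overlap, with CL lower, for 7 of 9, against 13.0% of all tested genes. In WT, 7 of 9 were lower and none higher (Ccl2, Ccl6, Ccl7, Ccl9, Ccl11, Cxcl10 and Cxcl14), against 12.6% of all tested genes called lower and 30.5% called in either direction. The groups again did not overlap for 7 of 9, against 19.0% of all tested genes. Median changes over the 9 genes were -1.41 (log2) in knockout and -1.19 in WT, while the median over all tested genes was 0.02 and 0.01. The 2 comparisons share no library but use 1 variance estimate from all 12 libraries. In both, 5 genes were called lower, which is 5 of the 6 in knockout and 5 of the 7 in WT, against 2.01% of all tested genes (246) called lower in both. Calls are from limma (all 12 libraries in a fit of 4 group means) with Benjamini-Hochberg adjusted p under 0.05 over all tested genes. Without replicate 3 of both knockout groups the knockout count was 3 (Ccl6, Cxcl10 and Cxcl14), while the share of all tested genes called lower also fell, with 165 genes in place of 443. Skeletal muscle markers, counted because muscle lies beside this depot, summed to 159 to 1260 scaled RPKM in knockout CL, 77.9 to 2270 in knockout PBS, 1.51 to 285 in WT CL and 1.91 to 221 in WT PBS, with 9 of 9 markers detected and none called in any comparison (0 of 9 in each by limma). All 9 were above WT in knockout, with median differences of 3.19 under CL and 3.71 under PBS. On the deposited scale 5 and 9 of the 9 passed as higher in these comparisons, where 8640 and 8115 of all 12249 tested genes did. The part of muscle RNA in the chemokine values was not tested.

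**Figure D1:**
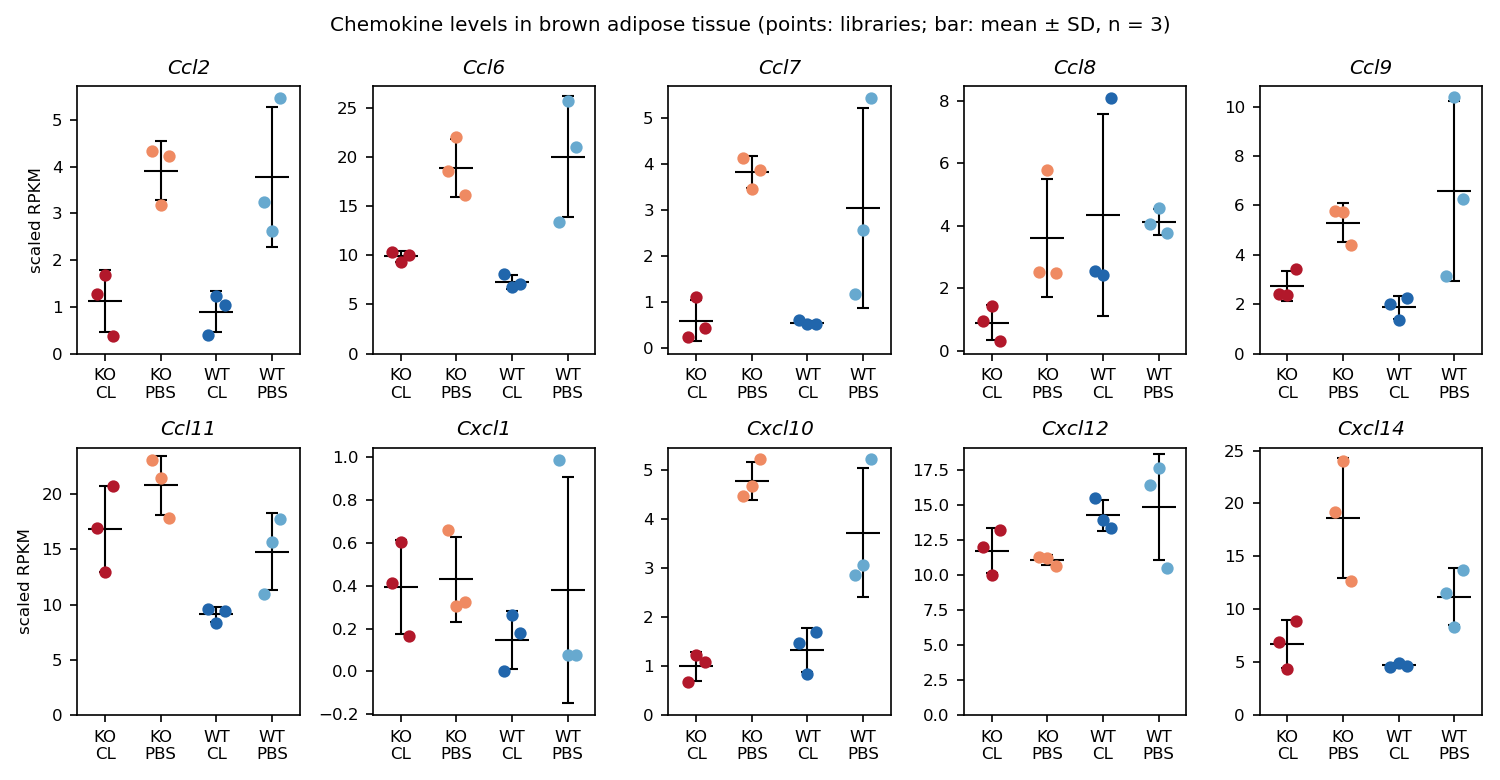
Scaled RPKM (linear axis) of the 10 chemokines in each library, by group (KO, knockout; CL, agonist), with black bars for the mean ± SD of 3 libraries. Cxcl10 and Ccl2 sit low in both CL groups, Ccl8 has 1 high WT CL library at 8.09, and Cxcl12 stays between 10.0 and 17.6 in all 12 libraries.

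Among the ligands of Ccr2, the receptor that brings monocytes out of blood, Ccl2 was at 1.28, 1.68 and 0.385 scaled RPKM in knockout CL and at 4.32, 3.19 and 4.22 in knockout PBS. In WT it was at 0.404, 1.24 and 1.05 with CL and at 3.25, 2.63 and 5.47 with PBS. All 6 CL libraries lay below all 6 PBS libraries. Ccl2 fell by 1.54 ± 0.35 in knockout (adjusted p = 0.0172) and by 1.62 ± 0.35 in WT (adjusted p = 0.0045). These levels rest on 4 to 78 reads per library. The knockout call was lost without knockout PBS replicate 1 (adjusted p = 0.0667) and without knockout CL replicate 3 (adjusted p = 0.0518).

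Ccl7, which signals through Ccr2 and other CC receptors, tracked its neighbour Ccl2 with r = 0.876 over the 12 libraries and Cxcl10, on another chromosome, with r = 0.948. It was at 0.247, 1.11 and 0.453 scaled RPKM in knockout CL against 4.14, 3.46 and 3.87 in knockout PBS. WT libraries had 0.611, 0.520 and 0.528 with CL against 1.18, 2.56 and 5.43 with PBS. No CL library reached any PBS library, although the WT PBS values spread widely. The fall was 2.04 ± 0.37 in knockout (adjusted p = 0.00655), the largest of the 9 genes in that genotype, and 1.57 ± 0.37 in WT (adjusted p = 0.00808). Read counts were 4 to 74.

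Ccl8, whose mouse product acts mainly through Ccr8, was called in knockout and not in WT. Its level was 0.964, 1.43 and 0.304 in knockout CL and 2.54, 5.79 and 2.51 in knockout PBS. In WT it was 2.55, 2.44 and 8.09 with CL and 4.07, 4.58 and 3.76 with PBS. The knockout groups did not overlap, while in WT 2 of the CL libraries lay below all PBS libraries and 1 lay above. Ccl8 fell by 1.55 ± 0.43 in knockout (adjusted p = 0.0398) and changed by -0.12 ± 0.43 in WT (adjusted p = 0.865, 95% interval -1.05 to 0.81). Of 27 alternatives the knockout call held in 12, and it was lost without WT PBS replicate 1 or 2, any knockout PBS replicate, or knockout CL replicate 1 or 3, with adjusted p of up to 0.136. For the interaction, -1.43 ± 0.61, the adjusted p was 0.229, so the 2 genotypes were not shown to differ in their Ccl8 response. Without WT CL replicate 3, the high library, the WT change was -0.63 (adjusted p = 0.248). Ccl8 had 3 to 61 reads per library.

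Ccl11, or eotaxin, binds Ccr3 and draws eosinophils. It was at 17.0, 12.9 and 20.7 in knockout CL and 23.1, 21.5 and 17.9 in knockout PBS, which overlap. In WT it was at 9.63, 8.37 and 9.43 with CL and 11.0, 15.7 and 17.8 with PBS, which do not. Ccl11 fell by 0.64 ± 0.19 in WT (adjusted p = 0.0215) and its change of -0.31 ± 0.19 in knockout did not pass (adjusted p = 0.335). Its interaction was 0.33 ± 0.26 (adjusted p = 0.561), not a call. The WT call was lost without WT PBS replicate 2 or 3 or WT CL replicate 2 (adjusted p = 0.0728, 0.0726 and 0.0744). Ccr3 itself lay below the filter, at group means of 0.101 to 0.302.

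Ccl6 and Ccl9 are neighbouring rodent CC chemokines, made largely by myeloid cells, that act through Ccr1. Their levels moved together over the 12 libraries, with r = 0.958, the highest among the 9 genes. Ccl6 was at 10.3, 9.25 and 10.1 in knockout CL and 18.6, 21.97 and 16.1 in knockout PBS. WT values were 8.05, 6.72 and 7.05 with CL and 13.4, 25.7 and 21.0 with PBS. In both genotypes every CL library was below every PBS library. Ccl6 fell by 0.89 ± 0.19 in knockout (adjusted p = 0.0136) and by 1.36 ± 0.19 in WT (adjusted p = 3.4e-04). The interaction was 0.46 ± 0.27 (adjusted p = 0.396), and the knockout call was lost without knockout CL replicate 2 (adjusted p = 0.0509).

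Ccl9 was at 2.39, 2.36 and 3.44 in knockout CL and 5.78, 5.74 and 4.39 in knockout PBS, and at 2.00, 1.35 and 2.24 in WT CL and 3.12, 10.4 and 6.27 in WT PBS. Neither pair of groups overlapped. It fell by 1.46 ± 0.31 in WT (adjusted p = 0.00467). In knockout the change of -0.85 ± 0.31 did not pass (adjusted p = 0.112) but did on the deposited scale (-1.05, adjusted p = 0.0361), with only the 2 groups compared (adjusted p = 0.0235), by DESeq2 (adjusted p = 0.0401) and without WT PBS replicate 1 or 2 (adjusted p = 0.0284 and 0.0464). The interaction was 0.61 ± 0.45 (adjusted p = 0.519). Their receptor gene Ccr1 lay below the filter, at group means of 0.185 to 0.543.

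Cxcl10, induced by interferon and a ligand of Cxcr3 on activated T cells, had the smallest adjusted p of the 9 genes in knockout. It was at 0.672, 1.23 and 1.08 in knockout CL against 4.47, 4.67 and 5.22 in knockout PBS. In WT it was at 1.48, 0.831 and 1.69 with CL against 2.87, 3.06 and 5.24 with PBS. All 6 CL libraries were below all 6 PBS libraries. The fall was 1.84 ± 0.23 in knockout (adjusted p = 8.3e-04) and 1.19 ± 0.23 in WT (adjusted p = 0.00265). The difference between genotypes, -0.65 ± 0.33, did not pass (adjusted p = 0.32). Both calls held under all 27 alternatives. Reads numbered 11 to 130 per library.

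Cxcl14, a chemokine made by epithelia and by brown and white adipocytes, was among the 4 highest of the 10 by mean level in knockout PBS. It was at 6.93, 4.34 and 8.92 in knockout CL and 19.2, 24.0 and 12.7 in knockout PBS. WT values were 4.54, 4.96 and 4.62 with CL and 11.5, 8.32 and 13.7 with PBS, and the groups of neither genotype overlapped. Cxcl14 fell by 1.41 ± 0.26 in knockout (adjusted p = 0.00696) and by 1.14 ± 0.26 in WT (adjusted p = 0.00654), under all 27 alternatives in both.

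Cxcl12, which binds Cxcr4 and the scavenger receptor Ackr3 and holds leukocytes and progenitors in place, was called in neither genotype. Its level was 12.0, 10.0 and 13.3 in knockout CL and 11.3, 11.2 and 10.7 in knockout PBS, and 15.5, 13.95 and 13.4 in WT CL and 16.5, 17.6 and 10.5 in WT PBS. The agonist change was 0.08 ± 0.16 in knockout (adjusted p = 0.83, 95% interval -0.28 to 0.43) and -0.03 ± 0.16 in WT (adjusted p = 0.926, 95% interval -0.38 to 0.33). With 1059 to 1835 reads per library it was the most deeply counted of the 9. Cxcl1, which draws neutrophils through Cxcr2, was not tested: it was at 0.415, 0.604 and 0.164 in knockout CL, 0.659, 0.307 and 0.326 in knockout PBS, 0, 0.263 and 0.178 in WT CL and 0.990, 0.0770 and 0.0750 in WT PBS. The groups overlapped in each genotype and each treatment compared.

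**Figure D2:**
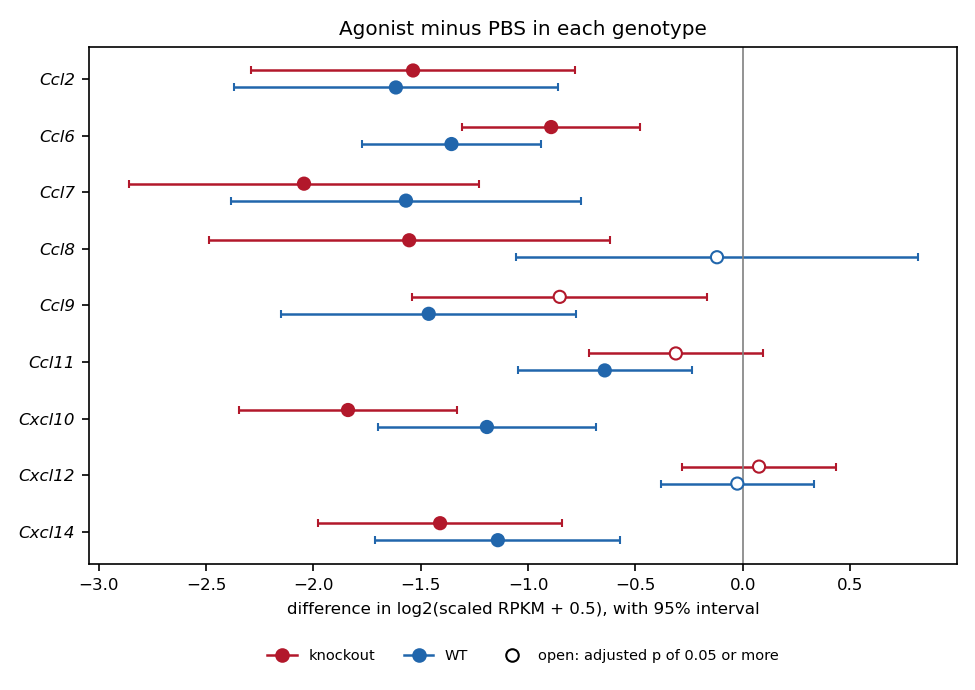
Agonist minus PBS for the 9 tested chemokines in knockout (red) and WT (blue), as differences in log2(scaled RPKM + 0.5) with 95% intervals, with filled points for adjusted p under 0.05. Intervals of Cxcl12 span 0 in both genotypes. Those of Ccl8 overlap, with centres at -1.55 in knockout and -0.12 in WT, and its interaction was not called (limma adjusted p = 0.229).

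The order of levels differed by group. In knockout CL the order of mean levels per length was Ccl11 (16.9 ± 3.91, SD, n = 3), Cxcl12 (11.8 ± 1.64), Ccl6 (9.88 ± 0.557), Cxcl14 (6.73 ± 2.3) and Ccl9 (2.73 ± 0.616), with Ccl2, Cxcl10, Ccl8, Ccl7 and Cxcl1 at 1.12 or less. In knockout PBS it was Ccl11 (20.8 ± 2.67), Ccl6 (18.9 ± 2.94), Cxcl14 (18.6 ± 5.68) and Cxcl12 (11.1 ± 0.341), the first 3 within their spread. WT CL was led by Cxcl12 (14.3 ± 1.11), then Ccl11 (9.14 ± 0.679) and Ccl6 (7.27 ± 0.692). WT PBS was led by Ccl6 (20.0 ± 6.18), then Cxcl12 (14.9 ± 3.82), Ccl11 (14.8 ± 3.46) and Cxcl14 (11.2 ± 2.72), which do not differ beyond their spread. The 10 levels summed to 44.9 to 58.8 in knockout CL, 77.9 to 102 in knockout PBS, 40.6 to 48.2 in WT CL and 67.9 to 90.6 in WT PBS.

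The comparison of genotypes asked whether loss of the ERRs in adipocytes changed these genes. With agonist, 2 of 9 were called between knockout CL and WT CL, against 41.5% of all tested genes: Ccl11 was higher (19.9% of all tested genes were) and Ccl8 lower (21.6% were) in knockout. The groups did not overlap for 3 genes higher in knockout (26.8% of all tested genes) and 2 lower (27.8%). Ccl11 averaged 16.9 ± 3.91 in knockout CL and 9.14 ± 0.679 in WT CL (SD, n = 3 each), with no overlap, a difference of 0.83 ± 0.19 (adjusted p = 0.00368) that passed under all 27 alternatives. Ccl8 averaged 0.898 ± 0.565 in knockout CL and 4.36 ± 3.23 in WT CL, also without overlap, a difference of -1.69 ± 0.43 (adjusted p = 0.0073). Without the high WT CL replicate 3 the Ccl8 difference was -1.20 (adjusted p = 0.0264). Ccl6 was above WT in every knockout CL library (9.25 to 10.3 against 6.72 to 8.05), but the difference of 0.42 ± 0.19 did not pass (adjusted p = 0.098). It passed with only the 2 groups compared (adjusted p = 0.00886) and without WT PBS replicate 1 (adjusted p = 0.0181). Without WT PBS replicate 3, Cxcl12 passed as lower in knockout (-0.28, adjusted p = 0.0403). In the fit of all libraries the other 6 ranged from -0.28 (Cxcl10 and Cxcl12) to 0.45 (Ccl9). On the deposited scale 5 of 9 passed, 4 of them higher in knockout (Ccl6, Ccl9, Ccl11 and Cxcl14), where 8640 of all tested genes were higher.

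Under PBS none of the 9 was called between knockout and WT by limma, against 34.2% of all tested genes. Ccl11 alone did not overlap, with knockout higher, against 22.1% of all tested genes. At an unadjusted p under 0.05 there were 3 of 9 (Ccl11, Cxcl12 and Cxcl14), against 44.6% of all tested genes. By edgeR 1 was called (Cxcl14), against 34.8% of all genes, and by DESeq2 2 (Cxcl12 and Cxcl14), against 36.6%. Cxcl14 averaged 18.6 ± 5.68 in knockout PBS and 11.2 ± 2.72 in WT PBS (0.69 ± 0.26, adjusted p = 0.0596). Ccl11 averaged 20.8 ± 2.67 in knockout PBS and 14.8 ± 3.46 in WT PBS, with the lowest knockout library at 17.9 and the highest WT library at 17.8 (0.50 ± 0.19, adjusted p = 0.0582). Cxcl12 averaged 11.1 ± 0.341 in knockout PBS and 14.9 ± 3.82 in WT PBS (-0.38 ± 0.16, adjusted p = 0.0951). Without WT PBS replicate 3, 4 of 9 genes passed, near the 33.6% of all genes in that fit. Ccl7 (0.93, adjusted p = 0.0375), Ccl11 (0.64, adjusted p = 0.027) and Cxcl14 (0.85, adjusted p = 0.0421) were higher and Cxcl12 lower (-0.60, adjusted p = 0.00195) in knockout. That library was not the only one to move these calls. Ccl11 and Cxcl14 each passed in 4 of 12 fits with 1 library left out. The others left out knockout PBS replicate 3 or knockout CL replicate 2 or 3. Both genes also passed with quantile normalization and with library weights, and Cxcl12 passed as lower with library weights. The 95% interval was -0.67 to 0.84 for Ccl2 and -1.20 to 0.67 for Ccl8.

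No chemokine passed the interaction of genotype and agonist, in which 3.90% of all tested genes were called. Only Ccl8 had an unadjusted p under 0.05, and neither edgeR nor DESeq2 called any of the 9. The design therefore gave no call for a genotype difference in any single agonist response, and intervals were wide, from -0.99 to 1.15 for Ccl2.

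**Figure D3:**
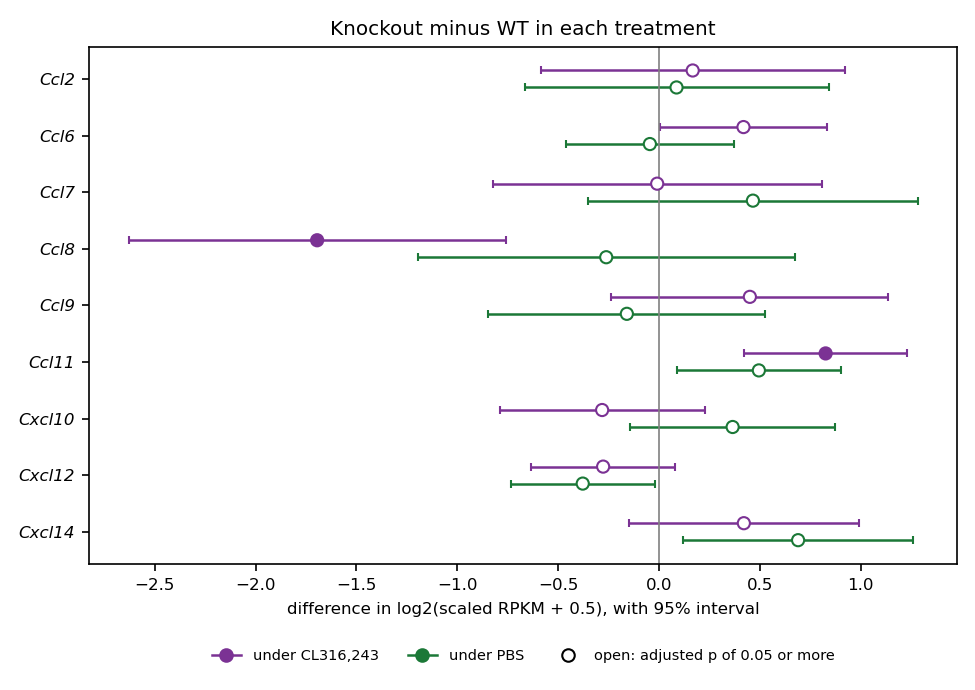
Knockout minus WT for the 9 tested chemokines under CL316,243 (purple) and PBS (green), as differences in log2(scaled RPKM + 0.5) with 95% intervals, with filled points for adjusted p under 0.05. Only Ccl11 (0.83) and Ccl8 (-1.69), both under CL316,243, are filled.

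The remaining ligands and the receptors were examined as lists. Of 30 other chemokine ligands 13 passed the filter. With agonist 4 were lower in knockout (none higher, median -0.53, and 1 lower without replicate 3 of both knockout groups) and 5 lower with 1 higher in WT (median -0.62). The share of all tested genes called lower was 3.62% in knockout and 12.6% in WT. Pf4, a platelet and macrophage CXC chemokine, averaged 10.4 ± 0.700 in knockout CL and 23.9 ± 2.40 in knockout PBS (-1.16 ± 0.31, adjusted p = 0.0339), and 6.22 ± 1.13 in WT CL and 19.9 ± 12.0 in WT PBS (-1.45 ± 0.31, adjusted p = 0.00425). Cxcl16, the ligand of Cxcr6, fell by 0.68 ± 0.18 in knockout (adjusted p = 0.0332) and by 1.10 ± 0.18 in WT (adjusted p = 8.5e-04). The exception was Ccl27a, which rose in WT (6.44 ± 0.937 in CL against 2.69 ± 0.0420 in PBS, 1.11 ± 0.19, adjusted p = 0.00103) and did not pass in knockout (0.50 ± 0.19, adjusted p = 0.114). Cx3cl1, the membrane-tethered fractalkine, was at 0.626 ± 0.115 in knockout CL, 0.737 ± 0.117 in knockout PBS, 1.09 ± 0.369 in WT CL and 2.87 ± 0.140 in WT PBS. It was the single ligand among these 13 to pass the interaction (0.97 ± 0.23, adjusted p = 0.0403), a call not made by edgeR (adjusted p = 0.0946) or without replicate 3 of both knockout groups.

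Of 23 chemokine receptors 9 passed the filter. The agonist lowered 2 in each genotype and raised none (median -0.21 in knockout and -0.42 in WT), against 3.62% of all tested genes lowered in knockout and 12.6% in WT. Without replicate 3 of both knockout groups it lowered 1 in knockout and 2 in WT. Ccr2, the receptor of Ccl2 and Ccl7, averaged 6.67 ± 1.07 in knockout CL, 7.76 ± 1.48 in knockout PBS, 3.73 ± 0.321 in WT CL and 9.23 ± 2.74 in WT PBS. It fell in WT (-1.16 ± 0.20, adjusted p = 0.00136) and did not pass in knockout (-0.20 ± 0.20, adjusted p = 0.599). For the interaction, 0.96 ± 0.29, the adjusted p was 0.0885. With agonist it was higher in knockout than in WT (0.75 ± 0.20, adjusted p = 0.0105), while its ligand Ccl2 gave 0.17 ± 0.35 (adjusted p = 0.736). Ackr3, which clears Cxcl12, was lower in knockout than in WT with agonist (-0.64 ± 0.23, adjusted p = 0.0404) and with PBS (-1.01 ± 0.23, adjusted p = 0.00461). The call with agonist was lost without replicate 3 of both knockout groups. Cxcr4, which signals for Cxcl12, was called in none of the 5 comparisons.

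Genes that accompany chemokines in inflammation were set beside them. Of 20 interferon-stimulated genes, the class to which Cxcl10 belongs, the agonist lowered 17 in knockout (median -0.99) and 6 in WT (median -0.34), among them Oasl2 (-1.24 in knockout and -0.70 in WT) and Mx1 (-1.06 in knockout and -0.50 in WT), and raised none. Without replicate 3 of both knockout groups the knockout count was 8. Of all tested genes the agonist lowered 3.62% in knockout and 12.6% in WT. Between knockout and WT under PBS 11 of the 20 were higher and none lower (6 without those libraries). In that comparison 1939 of all 12249 tested genes were called higher and 2250 lower. Of 15 genes of NF-κB and inflammatory cytokines 11 passed the filter, and with agonist 1 was lower in knockout (Nfkb2, -0.42) and 3 in WT (Nfkb2 at -0.75, Rela at -0.43 and Relb at -0.44). Knockout CL was called above WT CL for 5 of these 11, against 19.9% of all tested genes, including Tnfaip3, an NF-κB feedback inhibitor, at 1.00.

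Macrophage markers moved in the direction of the chemokines. Of 12 markers, all past the filter, the agonist lowered 4 in knockout (median -0.71) and 10 in WT (median -1.07), and raised none. It lowered 3.62% of all tested genes in knockout and 12.6% in WT. Their summed level was 178 to 226 scaled RPKM in knockout CL, 306 to 349 in knockout PBS, 155 to 195 in WT CL and 271 to 509 in WT PBS. C1qb, a complement subunit made by macrophages, fell by 0.88 ± 0.16 in knockout (adjusted p = 0.00575) and by 1.03 ± 0.16 in WT (adjusted p = 5.6e-04). Without replicate 3 of both knockout groups none of the 12 passed in knockout by limma and 9 passed in WT. In bulk tissue fewer cells of a type and less RNA per cell cannot be told apart, and the part of macrophage RNA in the chemokine changes was not tested. With agonist, T cell markers past the filter had 2 of 5 lower in knockout and 0 in WT (medians -0.83 and -0.215). B cell markers had 0 of 2 and 1 of 2 lower (-0.05 and -0.84). Without replicate 3 of both knockout groups these calls were 0 in both lists. Dendritic cell markers had 0 of 4 called in both genotypes (-0.22 and -0.54). Neutrophil markers had 1 of 5 higher in knockout and 0 in WT (-0.07 and -0.64), and mast cell markers 0 and 1 of 5 higher (0.24 and 0.92). For fibroblasts and endothelium, of 8 fibroblast and progenitor markers 0 were called in knockout and 1 in WT (Pdgfra, -0.50), and of 7 endothelial markers 0 were called in either genotype by limma.

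**Figure D4:**
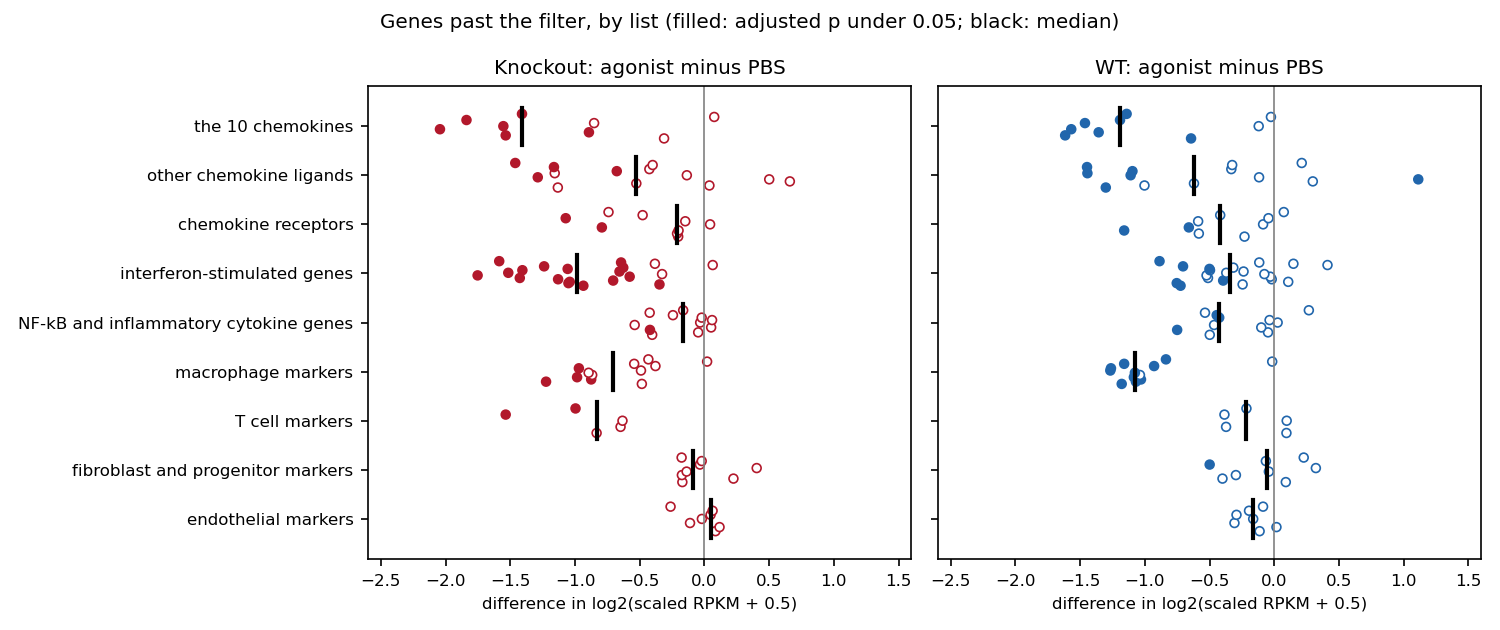
Agonist minus PBS in knockout (left) and WT (right), as differences in log2(scaled RPKM + 0.5), with a point for each gene past the filter (9 of the 10 chemokines), filled for adjusted p under 0.05, and a black bar for the median of each list. Medians of the chemokines were -1.41 and -1.19, those of macrophage markers -0.71 and -1.07, and those of endothelial markers 0.05 and -0.16.

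The genes outside the 10 whose levels tracked each called chemokine most closely over the 12 libraries are given as a description, since all libraries share the group differences. For Ccl6 they were Cd48 (r = 0.982), Clec12a (0.979) and Pld4 (0.974), and for Ccl9 the macrophage marker Adgre1 (0.971), Pak1 (0.970) and Clec12a (0.957). Ccl7 and Cxcl10 had the same 3 names: H2-T9 (0.962 and 0.945), C1qa (0.951 and 0.939) and Bst2 (0.944 and 0.948). Ccl2 was nearest to Rgs10 (0.944), Oas2 (0.944) and Aif1 (0.916). Ccl11 was nearest to Morf4l2 (0.949), Fkbp14 (0.948) and Camkmt (0.947), and Cxcl14 to Tuba1b (0.971), Tuba1a (0.933) and Dixdc1 (0.931). Ccl8 had the lowest values, with Pomgnt2 (0.883), Map3k7cl (0.858) and Zbtb8a (0.848).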

How the data were processed

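The authors deposited RPKM values for 24452 genes and a second table of 12380 genes, whose values are a linear signal although the file is named for log CPM. Per the submitters' processing notes, bcl2fastq 2.16.0.10, cutadapt, STAR 2.3.0, edgeR and the builds mm9 and mm10 were used, with no role given; for the counting tool, annotation and strand setting, no source used here gives one. Every value of the deposited signal was a whole multiple of 1 step per library (100% within 0.01), so reads were recovered by division. A further 9 stray cells were not used.

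Genes with mean RPKM of at least 0.5 (12249) were scaled by median-of-ratios factors and tested on log2(scaled RPKM + 0.5) with limma 3.58.1 (trend) in R 4.3.3, all 12 libraries in 1 fit, with Benjamini-Hochberg adjustment within each of 5 comparisons at 0.05. Count tests on recovered reads (edgeR 4.0.16 quasi-likelihood, DESeq2 1.42.0) were alternatives. On the reads of 12380 genes edgeR called 4305 genes for knockout PBS against WT PBS. The 3 tools' fits were tested on simulated data for 1 comparison. The members and lists were chosen with earlier results of these data known. Genes named beside the 10 were up to 4 per list with the smallest p, any others named being chosen after their values were seen, and the 3 genes most correlated with each called member. Promoters come from RefSeq (GRCm38.p6). The values of 1 listed gene are not reported here.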

Additional observations from a re-analysis of the deposited data

How the results depend on the processing

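With agonist 7 members passed in WT with all libraries and 6 to 7 with any 1 library left out, and all called changes kept their direction under all 27 alternatives. In knockout 6 passed, 4 to 6 with any 1 library left out and 3 without replicate 3 of both knockout groups. Between knockout CL and WT CL 2 passed, 2 to 3 with 1 library left out and 5 on the deposited scale. Between knockout PBS and WT PBS 0 passed by limma, against 5 on the deposited scale, 2 with quantile normalization, 3 with library weights, 1 by edgeR, 2 by DESeq2, 0 to 4 with 1 library left out and 2 without replicate 3 of both knockout groups. Of all 12249 tested genes 8877 were called on the deposited scale, 4574 with quantile normalization and 4588 with library weights. Without replicate 3 of both knockout groups 3273 of 12152 were called. In that comparison Ccl6 reversed, at -0.04 on the median-ratio scale and at 0.53 (adjusted p = 0.0186) on the deposited scale, where the median of all tested genes was also 0.53. The cause of these shifts was not tested, apart from scaling, which moves all genes of a library together. Over all tested genes the deposited scale gave 9451 calls for knockout CL against WT CL (8640 higher and 811 lower) in place of 5081 (2435 and 2646), 8877 for knockout PBS against WT PBS (8115 of them higher) in place of 4189 (1939 and 2250), 2068 for the agonist in knockout (396 and 1672) in place of 1261 (818 and 443), and for the agonist in WT 882 higher and 4671 lower in place of 2197 and 1538. Leaving out 1 library gave 513 to 1640 calls for the agonist in knockout and 225 to 820 for the interaction (478 with all), and without replicate 3 of both knockout groups these were 474 and 215. The interaction had 1153 calls with library weights and 823 by DESeq2. Replicate numbers did not pair the samples (same-number correlations of deviations from -0.219 to 0.373, and 0 to 4 of 6 samples correlated best with their own number). With a replicate block the agonist count in knockout was 5, Ccl8 being lost (adjusted p = 0.0578), and the other member counts were 2, 0, 7 and 0 for knockout CL against WT CL, knockout PBS against WT PBS, agonist in WT and interaction. Depth limits Ccl2, Ccl7 and Ccl8, whose lowest libraries held 4, 4 and 3 reads. Cxcl1 entered only the fit without a filter and, for the agonist in knockout, the fit of only the groups compared (-0.0958, limma adjusted p = 0.865). The fit of only the groups compared gave no interaction.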

Other observations

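Some ligands and receptors of T and NK cells were called between knockout PBS and WT PBS, where limma called none of the 9 tested chemokines. Xcl1, a chemokine of activated T and NK cells, averaged 0.435 ± 0.300 scaled RPKM in knockout CL, 2.06 ± 0.793 in knockout PBS, 0.713 ± 0.403 in WT CL and 0.518 ± 0.182 in WT PBS (SD, n = 3 each). It was higher in knockout PBS than in WT PBS (1.30 ± 0.31, limma adjusted p = 0.00687) and lower with agonist in knockout (-1.46 ± 0.31, adjusted p = 0.0137), and its interaction of -1.67 ± 0.44 did not pass (adjusted p = 0.0576). Xcl1 was not among the 12380 genes with recovered reads, so neither edgeR nor DESeq2 tested it. Cxcr3, the receptor of Cxcl10 on T cells, averaged 0.549 ± 0.0578 in knockout CL, 1.76 ± 0.674 in knockout PBS, 0.447 ± 0.119 in WT CL and 0.479 ± 0.152 in WT PBS, and was likewise higher in knockout PBS than in WT PBS (1.18 ± 0.20, adjusted p = 7.8e-04) and lower with agonist in knockout (-1.07 ± 0.20, adjusted p = 0.0077). Cxcr6, the receptor of Cxcl16, was also higher in knockout PBS than in WT PBS (0.77 ± 0.23, adjusted p = 0.0242). None of the 9 receptors past the filter, Cxcr3 and Cxcr6 among them, passed the interaction. Of 5 T cell markers past the filter, 4 were higher in knockout PBS than in WT PBS and 2 were lower with agonist in knockout, with summed levels of 2.12 to 4.39 in knockout CL, 6.81 to 11.7 in knockout PBS, 2.53 to 6.14 in WT CL and 2.93 to 7.30 in WT PBS. Without replicate 3 of both knockout groups these counts were 2 and 0. Of all 12249 tested genes 1939 and 443 were so called in the fit of all libraries. None of the 5 T cell markers passed the interaction. Of 2 B cell markers past the filter 0 were called by limma in knockout PBS against WT PBS, and both estimates were lower in knockout (median -0.80). The genes and lists of this paragraph were chosen after their values were seen.

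Among neutrophil markers S100a8 passed the interaction (2.80 ± 0.46, limma adjusted p = 0.00712), averaging 18.7 scaled RPKM in knockout CL, 4.65 in knockout PBS, 3.54 in WT CL and 6.57 in WT PBS. Of 8 such markers 5 were past the filter, with S100a8 alone called with agonist in knockout and 0 called in WT by limma. In knockout 3 of the 5 were lower and 2 higher with agonist (median -0.07). S100a9, whose product pairs with that of S100a8, averaged 2.13 in knockout CL, 1.40 in knockout PBS, 3.92 in WT CL and 5.91 in WT PBS. It was not called with agonist in knockout (0.36 ± 0.50, adjusted p = 0.718) and was lower in knockout PBS than in WT PBS (-1.72 ± 0.50, adjusted p = 0.0182). The summed level of the 8 markers averaged 23.4 in knockout CL, of which S100a8 made up 18.7, 9.28 in knockout PBS, 9.34 in WT CL and 15.4 in WT PBS. Of 6 eosinophil markers 1 was past the filter, Ear2, at group means of 2.51 to 5.21 scaled RPKM. It was called by limma only as higher in knockout CL than in WT CL (0.82), a call lost without replicate 3 of both knockout groups. Prg2 and Siglecf, below the filter, had group means of 0.243 to 0.721 and 0.0659 to 0.174. Epx, which encodes eosinophil peroxidase, was listed at 0 in all 12 libraries. Whether eosinophils were present was not tested. Ccl11, an attractant of eosinophils, was among the highest of the 10 chemokines.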
